A study of Rattus norvegicus with 20 samples.

Results

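Cells cultured from rat footpad were compared, before any transplantation, with cells cultured in the same way from oral mucosa, vagina, esophagus and trachea. The comparison rests on 10 microarrays, 2 for each tissue: the 2 footpad arrays were set against the mean of the 4 other tissues, in which each tissue had the same weight. It was made for all 14506 genes with a single symbol, and where a symbol had several probe sets the brightest on average over the 20 arrays of the series was taken. The other 10 arrays hold the same 5 tissues after transplantation and were used here as a second culture of each tissue. Footpad skin, like the other 4 linings, carries no hair, and the study asked whether cells of such origins can take part in making hairy skin. The tissues came from Sprague-Dawley rats of postnatal day 200 that carry an EGFP transgene, SDTgN (act-EGFP), which the labels describe as constitutive. All groups, footpad included, shared the transgene, the trypsin dissociation, the feeder layer of irradiated 3T3-J2 mouse fibroblasts and the sort on EGFP. The cells called after transplantation had been placed in the skin of newborn mice, had been carried on nude mice, and had been dissociated from the grafts and cultured again. The sort separates rat from mouse cells, and it does not separate rat epithelial cells from other rat cells. The duplicates are cultures, and the sources used here do not say that they came from separate animals, so the p-values measure the spread between duplicate cultures.

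The epidermis of palm and sole is a stratified epithelium whose basal cells express keratins 5 and 14 with the transcription factor Tp63, and whose suprabasal cells switch to keratins 1 and 10. The sole adds keratin 9 to these, and carries sweat glands but no hair follicles. Moist linings such as those of the mouth, esophagus and vagina make keratins 4 and 13 in their upper layers instead, and the trachea is lined by a columnar epithelium with basal cells. In culture on a feeder layer all of these cells grow as colonies of basal-like keratinocytes.

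Values are log2 RMA values, in which 1 unit is a doubling. Duplicate arrays correlated across probe sets with r between 0.991 and 0.996, and footpad before transplantation lay within that range. The values come without detection calls. As a guide, 40% of probe sets had a mean under 4.77, and a level under that value may be background. A gene is called higher or lower here where limma gave an adjusted p under 0.05 and a fold over 2. The sample titles carry Roman numerals that the labels do not explain. Before transplantation footpad and vagina share the same numeral, and the other 3 tissues carry another, so footpad was also set against vagina alone. After transplantation footpad shares a numeral with oral mucosa and esophagus, while vagina and trachea each carry a different one. The comparison with vagina alone therefore lies within a shared numeral only before. Tp63 was high in footpad cells, with 9.77 and 9.84 against 9.00 to 9.84 in the other tissues, a difference of 0.40 ± 0.07 (SE) that was under 2-fold. Keratin 14 read 13.29 and 13.31 in footpad and 13.05 to 13.16 elsewhere. The basal keratinocyte markers were therefore high in all 10 cultures. Keratin 9, which defines the sole, stayed at 4.97 and 4.89 in footpad cells against 4.68 to 5.13 in the others, close to the guide level, so the defining keratin of the labelled tissue was not measured clearly above background in these cultures.

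Against the mean of the other tissues, 122 of 14506 symbols were higher in footpad cells (0.841%) and 315 were lower (2.17%). On the scale of probe sets the counts were 163 and 468. The median difference was 1.33 among the higher symbols and -1.37 among the lower, while the median over all symbols was 0.06. More than 4-fold differences were seen for 21 higher and 58 lower symbols. Among the called symbols, both footpad arrays lay above all 8 other arrays for 108 (0.745% of all symbols) and below all 8 for 276 (1.9%). Without regard to size or test, 12% of all symbols had both footpad arrays above the other 8 and 11.8% had both below. A called difference from each of the 4 tissues taken alone was found for 35 higher symbols (0.241%) and 108 lower ones (0.745%), and these 4 comparisons share the footpad arrays. At an unadjusted p under 0.05 in limma, without regard to fold, 25.7% of all symbols were above the mean of the others and 21.3% below, and counts of list members at that p are to be read beside these shares. The group of lower expression was under the guide level for 19 of the higher and 36 of the lower symbols. These tests use the spread between duplicates as their error. With the spread between the 4 other tissues as the error in limma, 1 probe set was called higher and 0 lower, while 89 and 327 had an unadjusted p under 0.05 with a fold over 2. The probe set that remained was that of Cd200r1, with an adjusted p of 0.0313. All 8 other arrays of this gene lie under the guide level, so the spread used as its error may be that of background. Its passing therefore does not set it above genes that the other tissues express.

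**Figure D1:**
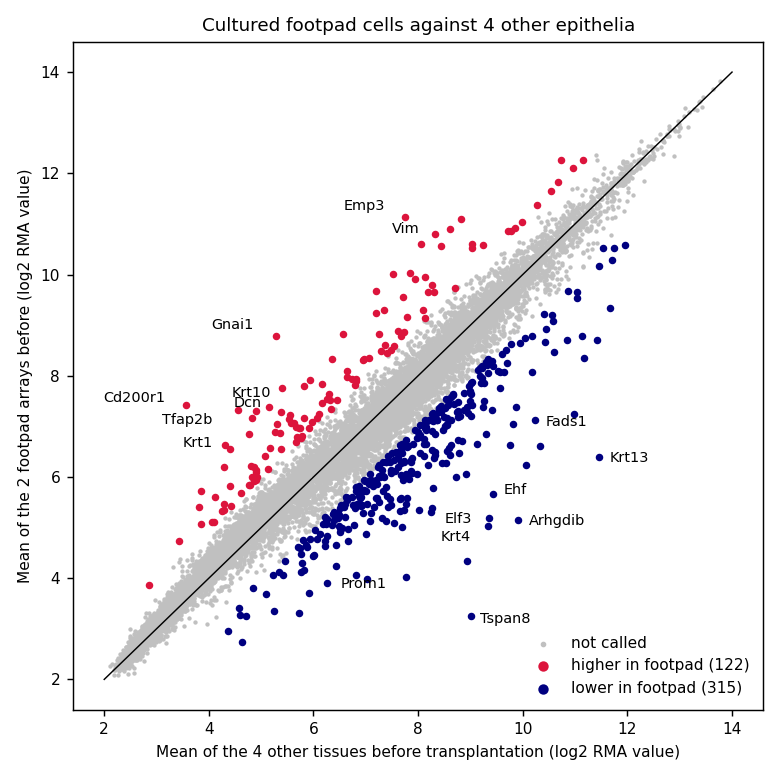
Each point is a gene, with the mean log2 RMA value of the 4 other tissues on the horizontal axis and the mean of the 2 footpad arrays on the vertical axis, both before transplantation; the line marks equal values. The 122 higher genes lie above the line, with Cd200r1 farthest from it, and the 315 lower genes lie below it, with Tspan8 farthest.

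Cd200r1 and Tfap2b were taken as the markers of the footpad cultures, with earlier results of these data known. Cd200r1 encodes the receptor for the membrane protein CD200, which restrains myeloid cells and is best known from leukocytes. It read 7.26 and 7.57 on the footpad arrays. The other cultures read 3.49 and 3.58 in oral mucosa, 3.54 and 4.05 in vagina, 3.51 and 3.51 in esophagus, and 3.40 and 3.43 in trachea. All 8 of these lie under the guide level, and the groups do not overlap. The measured difference was 3.85 ± 0.13 (SE, n = 2 footpad and 8 other arrays), with an adjusted p of 1.06e-10 in limma. Since the other cultures may be at background, the size of the fold is not fixed. With every value under the guide level raised to it, the level was at least 6.26-fold higher, and the difference was the third in size after Emp3 and Gnai1. Leukocyte markers are given beside it. Ptprc, the pan-leukocyte phosphatase CD45, read 3.98 and 3.58, and the T-cell marker Cd3e read 3.95 and 3.72, all under the guide level. The macrophage marker Cd68 was lower in footpad cells, with 5.25 and 5.52 against 6.01 to 7.97. Of 19 leukocyte markers 0 were higher and 1 was lower. At an unadjusted p under 0.05 in limma, 9 of these markers were above and 2 below, beside 25.7% and 21.3% of all symbols. Their median difference was 0.29, beside 0.06 over all symbols, and 5 of the 19 reached the guide level in footpad cells. Their summed linear level was 784 to 815 in footpad cells against 869 to 1473 elsewhere. The part of rat leukocytes in the Cd200r1 level was not tested. The ligand gene Cd200 was 5.55 and 5.61 in footpad cells, between esophagus (4.40 and 3.83) and vagina (9.89 and 10.07). It was called lower at -1.05 ± 0.18 only because vagina was in the mean, since without vagina the difference was 0.06.

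Tfap2b encodes AP-2 beta, a transcription factor of the AP-2 family that acts in neural crest, kidney and limb development and is expressed in skin. It read 7.24 and 7.41 in footpad cells, 5.40 and 5.21 in oral mucosa, 4.24 and 4.14 in vagina, 4.40 and 4.18 in esophagus, and 4.41 and 4.41 in trachea. Oral mucosa was the nearest group and still lay below both footpad arrays. The difference was 2.77 ± 0.10, at least 5.36-fold with values under the guide level raised to it, with an adjusted p of 1.84e-10 in limma. The adjusted p was 0.245 with the spread between tissues as the error. The other AP-2 genes differed less. Tfap2c, which is widely expressed in keratinocytes, was 8.90 and 8.87 in footpad cells and 7.24 to 8.67 elsewhere, a difference of 0.72 ± 0.07 that was under 2-fold. Tfap2a, the main AP-2 factor of epidermis, read 6.83 and 7.32 against 6.66 to 7.57 and differed by -0.04 ± 0.13. Tfap2d and Tfap2e differed by 0.50 and 0.21. Of the 5 AP-2 genes Tfap2b alone was called.

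A few genes that record position along the body differed, in both directions. Hoxc12, a gene of the posterior HoxC cluster, was 5.55 and 5.89 in footpad cells and 3.56 to 4.23 elsewhere, with a median of 3.79. This difference of 1.87 ± 0.15 was called against each of the 4 tissues. Hoxa7 was higher by 1.25 ± 0.15 and Hoxa5 by 1.17 ± 0.20. These were the 3 called among 22 homeobox cluster genes measured, 0 of which were lower. Their median difference was 0.25, beside 0.06 over all symbols, and 11 of the 22 reached the guide level in footpad cells. Leukocyte, airway and muscle genes had medians of 0.29, 0.22 and 0.21, so a shift of this size was not particular to homeobox genes. At an unadjusted p under 0.05 in limma, 12 of the 22 were above the mean of the others and 1 was below, beside 25.7% and 21.3% of all symbols. Both footpad arrays lay above all 8 others for 6 of the 22 and below for 0, beside 12% and 11.8% of all symbols. Tbx15, a T-box factor of limb and trunk mesenchyme and skin patterning, read 5.61 and 5.61 against 3.74 to 4.36 and was higher by 1.49 ± 0.17. Its other arrays too all lie under the guide level. Tbx3, which acts in limb patterning, was higher by 1.01 ± 0.09. Pitx1, the factor that specifies the hindlimb and is also made in oral epithelium, moved the other way. It was 6.08 and 5.90 in footpad cells and 7.95 to 9.34 in the other cultures, with a difference of -2.74 ± 0.08 and an adjusted p of 4.72e-11 in limma. Meis2 and Pax9 were the other lower members of the 31 position factors measured, at -1.16 and -1.05. Of the 31, 16 were above and 8 below at an unadjusted p under 0.05 in limma. Their median difference was 0.26, close to that of the leukocyte genes. Other limb genes were not called: Tbx4, the hindlimb T-box factor, differed by 0.17, Tbx5, its forelimb counterpart, by 0.15, and Lmx1b, which specifies the dorsal side of the limb, by 0.22.

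Beyond the 2 markers, the other genes of the 15 largest higher differences had varied roles. Gnai1, an inhibitory G-protein alpha subunit, read 8.65 and 8.91 in footpad cells and 3.42 to 6.56 elsewhere, with a median of 5.45. The difference was 3.49 ± 0.16, at least 9.56-fold with values under the guide level raised to it. Emp3, a tetraspan membrane protein common in mesenchymal and blood cells, read 11.10 and 11.16 against 6.41 to 9.23, with a median of 7.78, and was 10.4-fold higher. For both genes the other tissues were spread over more than 2 units, and neither came near the footpad arrays. Has2, the main hyaluronan synthase, was 9.62 and 9.72 against 5.62 to 8.71. Nppb, the precursor of brain natriuretic peptide, was 9.88 and 10.15 against 5.57 to 8.54. Has2 and Nppb shared an order, with vagina the nearest tissue, trachea next, and esophagus and oral mucosa lowest. Moxd1, a monooxygenase related to dopamine beta-hydroxylase, was 10.56 and 10.64 against 5.67 to 9.63. Serpine2, which inhibits thrombin and urokinase, was 7.73 and 7.78 against 4.72 to 6.28. Hr, the hairless corepressor without which the hair cycle fails, was 8.74 and 8.93 against 5.77 to 7.41. It was the called member among 13 hair follicle factors, and it was higher by 2.27 ± 0.13. C1r, a complement protease, was higher by 2.26 and the carboxypeptidase gene Cpa4 by 2.24. Ocm, which encodes oncomodulin, a calcium-binding protein, was 10.85 and 10.94 against 6.17 to 10.76. Vagina alone reached 10.70 and 10.76, and against vagina alone the difference of 0.16 had an adjusted p of 0.191 in limma. Of these 15 genes, 13 were called against each of the 4 tissues, the exceptions being Ocm and Vim.

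**Figure D2:**
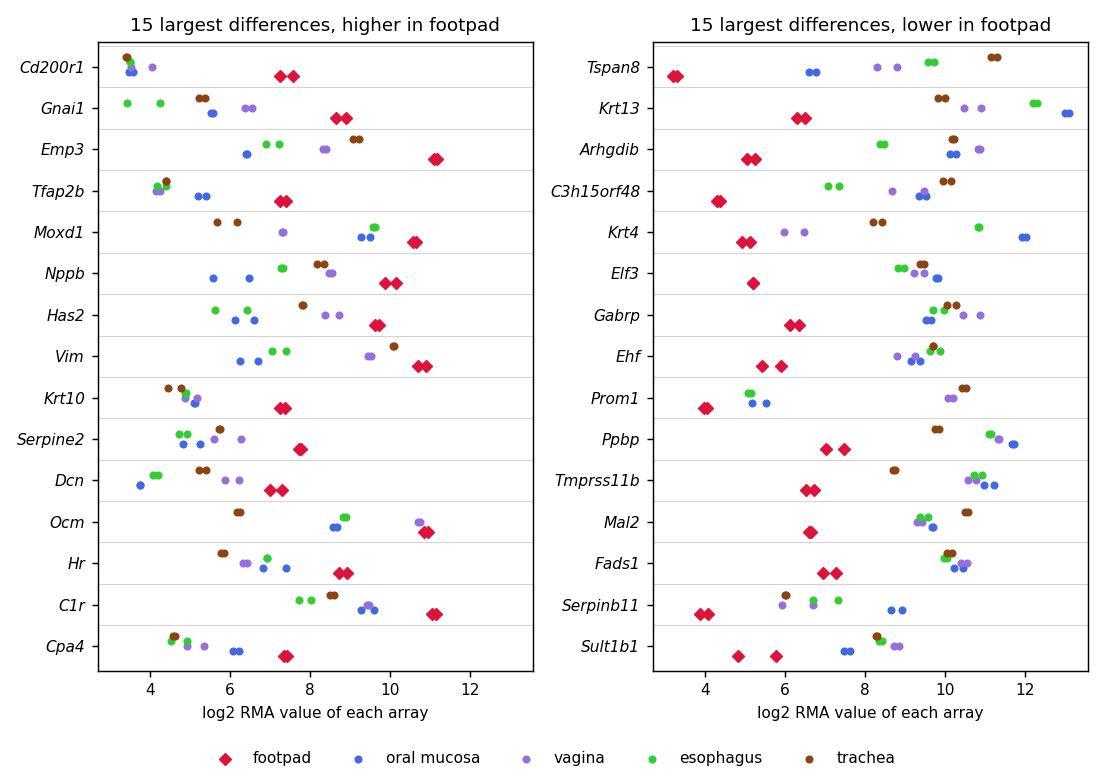
Log2 RMA value of every array before transplantation for the 15 genes with the largest higher (left) and the 15 with the largest lower (right) difference; diamonds are the 2 footpad arrays and circles the 2 arrays of each other tissue. The diamonds lie beyond all circles in every row, which the choice of genes required, and the gap is narrowest for Ocm, where vagina lies next to footpad.

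The stretches before the start sites of 4 of these genes are shown because an AP-2 gene was among the markers; they are the 250 bases upstream in RefSeq's GRCr8 assembly, 5′ to 3′ on the gene's strand. Capitals mark GCCNNNGGC, the palindromic AP-2 consensus, which reads the same on both strands. Vim and Gnai1 (higher in footpad) and Krt4 (lower) hold a match, and Krt10 (higher) holds none. These 4 do not represent the ranked genes, since most ranked genes with a promoter sequence held no match. The positions are chr17:81577011-81577260 (plus strand) for Vim, chr4:17705811-17706060 (plus) for Gnai1, chr10:84839161-84839410 (minus) for Krt10 and chr7:134930714-134930963 (minus) for Krt4.
Vim: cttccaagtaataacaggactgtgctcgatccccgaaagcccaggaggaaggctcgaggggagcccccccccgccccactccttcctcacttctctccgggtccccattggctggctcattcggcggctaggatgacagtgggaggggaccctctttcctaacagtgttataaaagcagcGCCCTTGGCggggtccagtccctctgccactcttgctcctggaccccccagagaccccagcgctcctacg
Gnai1: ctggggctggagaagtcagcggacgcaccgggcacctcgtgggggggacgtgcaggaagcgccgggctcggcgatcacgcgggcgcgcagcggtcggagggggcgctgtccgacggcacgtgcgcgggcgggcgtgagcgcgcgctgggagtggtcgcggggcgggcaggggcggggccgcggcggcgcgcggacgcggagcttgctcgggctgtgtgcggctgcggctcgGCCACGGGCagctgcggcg
Krt10: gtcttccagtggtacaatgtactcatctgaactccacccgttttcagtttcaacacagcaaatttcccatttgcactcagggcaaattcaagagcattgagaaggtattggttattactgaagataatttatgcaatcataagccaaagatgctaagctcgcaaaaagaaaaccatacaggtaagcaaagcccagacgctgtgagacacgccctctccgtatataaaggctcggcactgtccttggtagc
Krt4: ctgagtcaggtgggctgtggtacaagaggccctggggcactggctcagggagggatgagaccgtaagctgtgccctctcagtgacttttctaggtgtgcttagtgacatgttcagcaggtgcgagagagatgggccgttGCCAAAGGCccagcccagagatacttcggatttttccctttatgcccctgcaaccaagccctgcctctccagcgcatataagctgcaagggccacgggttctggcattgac
The match begins 70 bases before the start in Vim, 19 in Gnai1 and 111 in Krt4. In such windows a match was found for 19 of the 78 symbols with a promoter in the table that were higher and not overlapping (24.4%) and for 42 of 227 that were lower (18.5%). The share was 17.4% over 12536 symbols tested and 12.6% over all 33469 promoters of the table. A second set of letters, GGAAGT or its reverse complement ACTTCC, which holds the core that ETS factors such as Elf3 and Ehf bind, was found for 3 of 78 (3.85%) and 41 of 227 (18.1%). It was found for 21.7% of the symbols tested and 19.2% of all promoters. Both motifs were chosen after the data were seen, the shares are descriptions without a test, and a match is not a binding site.

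Suprabasal keratins of epidermis were present at low to middle levels in footpad cells and near the guide level in the others. Keratin 10 read 7.36 and 7.24 against 4.45 to 5.17, with a median of 4.89, and keratin 1, its partner, read 6.36 and 6.76 against 4.05 to 4.80, with a median of 4.37. The differences were 2.39 ± 0.11 and 2.17 ± 0.15, and both were called against each of the 4 tissues. Keratin 16, a keratin of plantar and of wounded epidermis, was 12.10 and 12.10 in footpad cells. Esophagus came close to it at 12.05 and 11.96, and trachea was lowest at 9.58 and 9.54, so the difference of 1.13 ± 0.09 was called against 2 of the 4 tissues. Of 10 plantar and suprabasal keratins measured, these 3 were higher and 0 were lower, with a median difference of 0.21. Genes of the cornified envelope did not follow: of 15 measured 0 were higher and 2 were lower. Tgm1, the transglutaminase that cross-links the envelope, read 9.34 and 9.35 against 11.06 to 12.08, a difference of -2.33 ± 0.06. Cnfn, which encodes cornifelin, was lower by 1.74 on the log2 scale as a mean, with 6.49 and 6.56 in footpad cells and 6.25 and 6.11 in trachea. In the basal layer list of 16 genes, Krt15, a keratin of basal cells and of the hair follicle bulge, was the most changed, with 7.47 and 7.28 against 9.38 to 10.64 and a difference of -2.49 ± 0.11.

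Genes of moist stratified linings were far lower in footpad cells. Keratin 13 read 6.50 and 6.30 in footpad, 12.99 and 13.08 in oral mucosa, 10.46 and 10.90 in vagina, 12.28 and 12.18 in esophagus, and 9.98 and 9.81 in trachea. Its partner keratin 4 read 5.13 and 4.91 in footpad, 11.90 and 12.01 in oral mucosa, 5.98 and 6.48 in vagina, 10.85 and 10.81 in esophagus, and 8.43 and 8.20 in trachea. Footpad was lowest for both, and vagina approached it for keratin 4 only. The differences were -5.06 ± 0.13 (33.4-fold lower) and -4.31 ± 0.14 (19.8-fold lower), with adjusted p of 1.27e-11 and 9.81e-11 in limma. Of 14 mucosal differentiation genes measured, 8 were lower and 0 were higher, with a median difference of -1.83. Sprr3, a small proline-rich protein of esophagus, was 5.41 and 5.38 in footpad cells. It was as low in trachea (5.01 and 5.44), and its difference of -2.86 ± 0.11 came from oral mucosa, esophagus and vagina. Mal (-2.68) and Scel (-2.19), a membrane-traffic protein and a precursor protein of the envelope, were lower than in each of the 4 tissues. So was the serine protease gene Tmprss11g (-2.74). Tmprss11b, a related protease gene outside the list, read 6.71 and 6.51 against 8.70 to 11.20 and was 13.1-fold lower. The median of the list against single tissues ran from -3.16 against oral mucosa to -0.35 against trachea.

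Genes of simple and glandular epithelium formed the list with the highest share of lower members. Of 18 measured, 12 were lower and 0 were higher, with a median difference of -1.52. Both footpad arrays lay below all 8 others for 14 of the 18, beside 11.8% of all symbols. Tspan8, a tetraspanin of gut and glandular epithelia, read 3.31 and 3.19 in footpad, 6.78 and 6.60 in oral mucosa, 8.29 and 8.80 in vagina, 9.71 and 9.56 in esophagus, and 11.28 and 11.13 in trachea. The measured difference was -5.77 ± 0.15. Footpad lay under the guide level and every other culture above it. With the footpad values raised to that level, Tspan8 was at least 19.1-fold lower, the fourth in size after Krt13, Arhgdib and Krt4. Elf3 and Ehf are epithelial transcription factors of the ETS family. Elf3 was 5.19 and 5.19 in footpad cells and 8.83 to 9.82 elsewhere, with a difference of -4.17 ± 0.12. Ehf was 5.43 and 5.89 against 8.78 to 9.88, with a difference of -3.77 ± 0.13. For both factors the other 4 tissues lay within about 1 unit of each other, and with the spread between tissues as the error the adjusted p was 0.0742 for Elf3 and 0.0943 for Ehf. A related factor, Elf5, was 4.20 and 4.70 in footpad cells, a level shared by trachea (4.37 and 4.40), and it was lower by 1.55 on the log2 scale against the mean. Prom1, the membrane protein prominin, was 3.98 and 4.04 against 5.06 to 10.52, with vagina and trachea over 10 and the other 2 tissues under 6. The simple keratins Krt8 (-2.76), Krt19 (-2.67), Krt18 (-2.01) and Krt7 (-1.49) and the adhesion gene Epcam (-1.80 ± 0.07) were also lower. The same held for the tight junction genes Cldn4 (-1.30) and Cldn3 (-1.08). Cdh1, the E-cadherin gene of all these epithelia, was 9.74 and 9.87 against 10.55 to 10.86, and its difference of -0.88 was under 2-fold. Against single tissues the median of the list ran from -2.53 (trachea) to -0.82 (esophagus). The summed linear level of the list was 3550 to 3629 on the footpad arrays and 8076 to 20740 on the others.

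**Figure D3:**
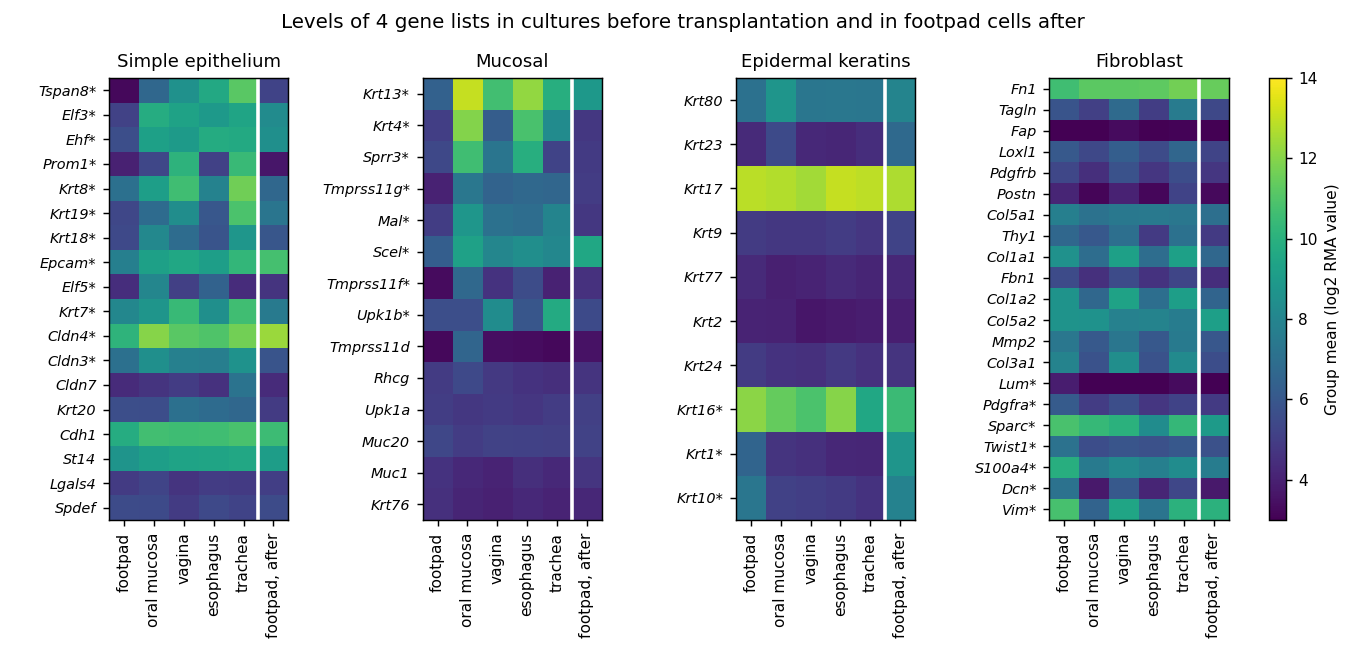
Group means (log2 RMA value, color scale) of all measured members of 4 gene lists in the 5 tissues before transplantation and, right of the white line, in footpad cells after; rows are ordered by the difference before and an asterisk marks a called difference. Footpad is darkest among the cultures before for Tspan8, Elf3, Ehf and Krt13, whereas the fibroblast genes such as Col1a1 are bright in footpad, vagina and trachea alike.

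The remaining genes of the 15 largest lower differences had varied roles. Arhgdib, a gene best known from blood cells, was 5.06 and 5.25 in footpad cells and 8.38 to 10.87 elsewhere, with a median of 10.19. The difference of -4.76 ± 0.10 was a 27.1-fold lower level. C3h15orf48, a small mitochondrial protein gene, was 4.30 and 4.37 against 7.07 to 10.13, and at least 18.0-fold lower with the footpad values raised to the guide level. Gabrp, a GABA-A receptor subunit of non-neuronal epithelia, was 6.12 and 6.34 against 9.51 to 10.87 and 14.2-fold lower. The chemokine gene Ppbp was 7.02 and 7.47 against 9.73 to 11.72. Mal2, a protein of apical transport, was 6.65 and 6.60 against 9.30 to 10.58. Serpinb11, an intracellular serpin, was 3.88 and 4.08 against 5.91 to 8.92. The sulfotransferase gene Sult1b1 was 4.84 and 5.78, the widest footpad pair among these genes, against 7.48 to 8.85. Fads1, a desaturase that makes long polyunsaturated fatty acids, was 6.95 and 7.28 against 9.96 to 10.55 and 8.65-fold lower. Its neighbor Fads2, named after its values were seen, was 8.70 and 8.73 against 11.13 to 11.63 and 6.54-fold lower. Both desaturases were high and nearly level in the other 4 tissues. All of the 15 ranked lower genes were called against each of the 4 tissues.

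Fibroblast markers were the list with the highest share of higher members. Of 21 measured, 7 were higher and 0 were lower, with a median difference of 0.62. Vim, the intermediate filament of mesenchymal cells, read 10.69 and 10.89 in footpad, 6.70 and 6.26 in oral mucosa, 9.53 and 9.44 in vagina, 7.06 and 7.41 in esophagus, and 10.09 and 10.08 in trachea. Dcn, the matrix proteoglycan decorin, read 7.01 and 7.31 in footpad, 3.75 and 3.75 in oral mucosa, 6.22 and 5.89 in vagina, 4.21 and 4.07 in esophagus, and 5.41 and 5.24 in trachea. For both, oral mucosa and esophagus were low and vagina and trachea lay between them and footpad. The differences were 2.47 ± 0.12 and 2.35 ± 0.12. S100a4, a calcium-binding protein of motile cells, was 9.89 and 9.93 against 7.36 to 8.41, and Twist1, a mesenchymal transcription factor, was 7.34 and 7.00 against 5.24 to 6.12. These differences, 1.97 and 1.34, were called against each of the 4 tissues. Sparc, Pdgfra and Lum were higher by 1.09, 1.03 and 1.01. The fibrillar collagens did not reach 2-fold: Col1a1 read 8.62 and 8.49 in footpad, 9.36 and 9.11 in vagina, 9.40 and 9.13 in trachea, 6.83 and 7.04 in oral mucosa, and 6.74 and 7.09 in esophagus. Col1a2 and Col3a1 had the same order and differed from the mean by 0.62 and 0.88. The median of the list was 1.00 against oral mucosa, 1.34 against esophagus, 0.04 against vagina and -0.11 against trachea. Its summed linear level was 8667 to 8735 on the footpad arrays, inside the range of 4178 to 9089 of the others. With each array centered on its median, 4 members were called in place of 7. The count was also 4 without esophagus in the mean and against vagina alone. Outside the list, and named after their values were seen, the transcription factor Zeb1 read 5.97 and 6.44 against 3.93 to 4.54 and the proteoglycan gene Vcan read 7.22 and 7.36 against 4.19 to 6.67. The other arrays of Zeb1 all lie under the guide level, so the size of its fold is not fixed. In bulk cultures, fewer cells of a type and less RNA per cell cannot be told apart, and the part of fibroblast-like rat cells in these differences was not tested.

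Markers of other cell types were mostly not called. In footpad cells 5 of 11 endothelial, 11 of 14 muscle and 3 of 9 melanocyte genes reached the guide level, the highest being Eng (5.87), Acta2 (8.52) and Gpnmb (8.31). Of 11 endothelial genes 0 were called, with 3 above and 1 below the mean of the others at an unadjusted p under 0.05 in limma. Of 14 muscle genes 0 were called, with 3 above and 0 below at that p. Over all symbols the shares at that p were 25.7% above and 21.3% below. The endothelial genes Pecam1, Cdh5 and Kdr read 4.63 and 4.31, 5.09 and 4.76, and 3.79 and 3.56 in footpad cells. Of 9 melanocyte genes Gpnmb alone, which is also made by other cells, was higher, at 1.36, while Mlana read 4.04 and 3.68. The footpad arrays of Gpnmb did not lie above all 8 others. Of 11 Merkel cell and nerve genes Sox2, also a gene of esophageal and tracheal basal cells, was lower by 1.23 on the log2 scale, and it was the called gene among 19 airway genes too. Against vagina alone Sox2 differed by 0.05.

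The remaining lists held few called members, beside 0.841% higher and 2.17% lower of all symbols, and some moved slightly as a whole. Over all symbols, 12% had both footpad arrays above all 8 others and 11.8% had both below, and the counts here are to be read beside these shares. Of 33 cell cycle genes, 2 were higher, Ccne2 (1.35 ± 0.17) and Cdc6 (1.20 ± 0.13), which act at the start of DNA replication, and 17 had both footpad arrays above all 8 others. The median difference was 0.54. It was 1.49 against oral mucosa and 0.17 to 0.28 against the other 3 tissues. Of 18 cholesterol synthesis genes 1, Tm7sf2, was lower, at -1.03, yet 16 had both footpad arrays below all 8 others, and the median was -0.64. This median lay between -0.78 and -0.57 against each tissue alone. Of 10 MHC class II genes 0 were called, with 8 above and 1 below at an unadjusted p under 0.05 in limma (25.7% and 21.3% over all symbols), 6 had both footpad arrays above all others and the median was 0.56, though Cd74, the invariant chain, overlapped with 6.91 and 7.00 against 5.67 to 7.26. Among 25 immediate early genes 4 were lower, namely the orphan receptors Nr4a1 (-1.75) and Nr4a2 (-1.10), the stress factor Atf3 (-1.33) and the phosphatase Dusp1 (-1.21), with a list median of -0.33. The footpad arrays of Dusp1 did not lie below all 8 others.

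**Figure D4:**
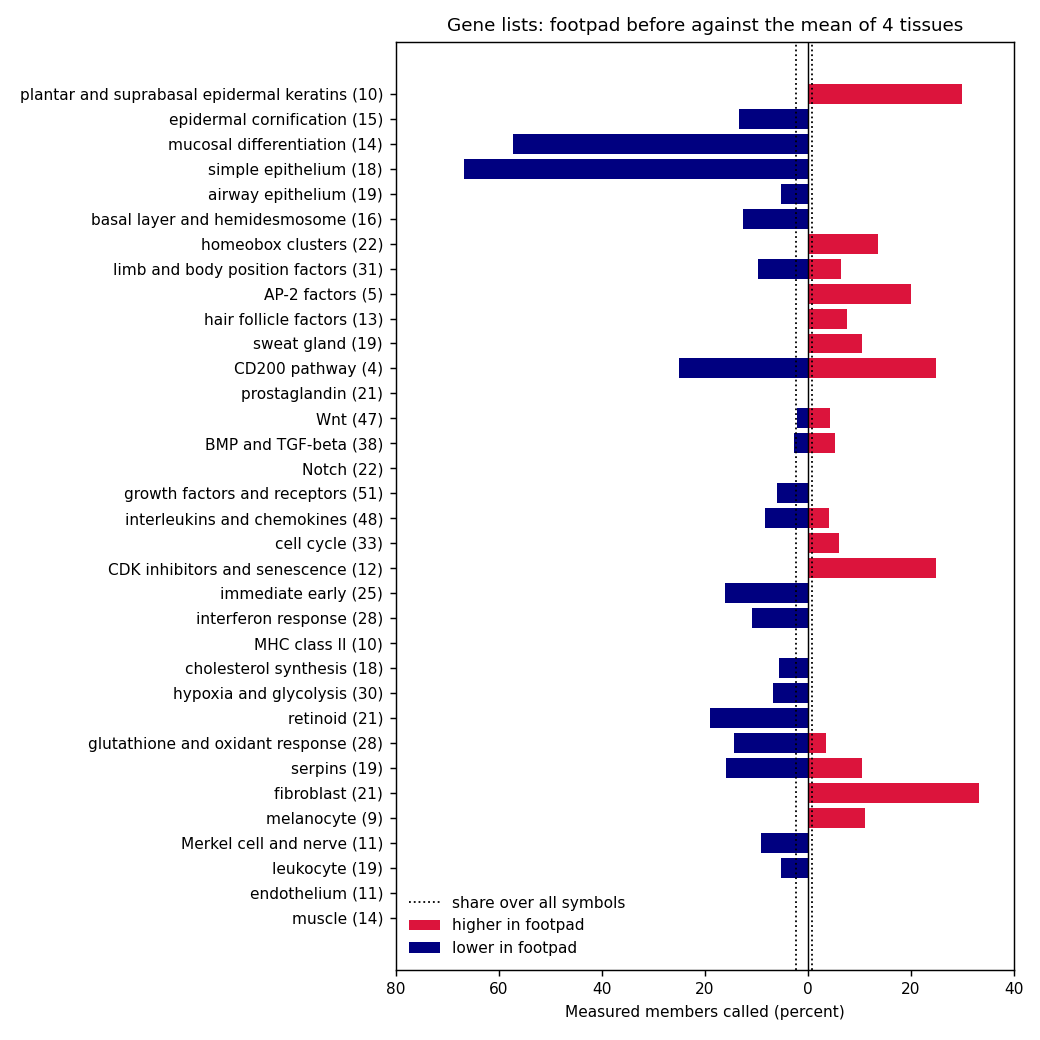
Share of the measured members of each gene list (number in parentheses) that were called higher in footpad cells, to the right, or lower, to the left; dotted lines mark the shares over all symbols, 0.841% and 2.17%. Lists with fewer than 4 measured members are left out. Simple epithelium and mucosal differentiation have the longest bars to the left, and fibroblast the longest to the right.

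Signalling genes were called in small numbers, to be read beside 0.841% of all symbols higher and 2.17% lower. The single lower genes of the Wnt list and of the BMP and TGF-beta list lie near the latter share. Of 48 interleukins, chemokines and their receptors, the epidermal alarmins Il1a (-2.25 ± 0.19) and Il33 (-1.38 ± 0.09) were lower than in each of the 4 tissues. Il18 (-2.19) and the receptor antagonist Il1rn (-1.56) were lower as well, whereas the chemokines Ccl2 (1.45) and Cxcl1 (1.14) were higher. The footpad arrays of Il18 did not lie below all 8 others. Of 51 growth factors and receptors 3 were lower. Kitlg, the ligand that sustains melanocytes, read 6.57 and 6.90 against 8.13 to 9.33, a difference of -2.02 ± 0.08, and Fgf9 and the receptor gene Erbb3 were lower by 1.72 and 1.30 on the log2 scale. Among 38 BMP and TGF-beta genes the activin antagonist Fst (1.58 ± 0.11) and Fstl1 (1.28) were higher and Tgfb2 (-1.51) was lower. Among 47 Wnt genes the secreted modulator Sfrp2 (1.16) and the receptor Ror1 (1.01) were higher and Sfrp1 (-1.19) was lower. Of 22 Notch and 21 prostaglandin genes 0 were called. At an unadjusted p under 0.05 in limma, 10 Notch genes were above and 4 below the mean of the others, and 8 prostaglandin genes were above and 5 below, beside 25.7% and 21.3% of all symbols.

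Metabolic and protective genes were mostly lower where they were called, as were called symbols in general. Of all symbols 2.17% were lower and 0.841% higher, and the counts of this paragraph are to be read beside these shares. Of 21 retinoid genes 4 were lower. Dhrs3, which reduces retinal to retinol, read 6.29 and 6.67 against 8.01 to 10.07 and differed by -2.29 ± 0.09. The retinoid-binding genes Rbp2 and Crabp2 differed by -1.39 and -1.19, and Aldh1a3, which makes retinoic acid, by -1.18. Of 28 genes of glutathione and oxidant response, Gstt2 (-1.94), Gsr (-1.53), Gstm2 (-1.36) and Nqo1 (-1.10) were lower and Mgst1 (1.10) was higher. Car9, a carbonic anhydrase induced in low oxygen, was 7.47 and 7.52 against 8.96 to 9.54, and it and Aldoc (-1.03) were the lower genes of 30 in the hypoxia list. Of 28 interferon response genes Oasl (-1.62), Usp18 (-1.49) and Ifit2 (-1.25) were lower. Among 19 serpins, Serpinb10 (-2.15) and Serpina1 (-1.56) joined Serpinb11 on the lower side, and Serpinb9 (1.49) joined Serpine2 on the higher. Of 12 CDK inhibitor and senescence genes the matrix proteases Mmp10 (2.32) and Mmp3 (1.97) and the inhibitor Cdkn1c (1.36) were higher. Against oral mucosa alone 1 of the 12 was called higher. Usp18, Serpina1 and Mmp10 were called on the mean, and their footpad arrays did not lie beyond all 8 others. Of 19 sweat gland genes the carbonic anhydrase Car2 (1.28) and the sodium pump subunit Fxyd2 (1.14) were higher, and both are made in other tissues too.

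The distance of footpad cells from the other tissues was uneven. Against oral mucosa 403 symbols were higher and 737 lower, against vagina 119 and 319, against esophagus 177 and 261, and against trachea 165 and 365. These 4 comparisons share the footpad arrays and use the same threshold. Several genes given above were not called against vagina alone, although all of them but Sox2 kept their direction. Besides Ocm, the higher ones, with their log2 difference from vagina, were Ccne2 (0.95), Cdc6 (0.42), Ccl2 (0.81), Cxcl1 (0.90), Fstl1 (0.46), Ror1 (0.90), Tbx3 (0.48), Serpinb9 (0.45), Vcan (0.66) and the fibroblast markers Sparc (0.82), Lum (0.82) and Pdgfra (0.52). Besides Sox2, the lower ones were Erbb3 (just under 2-fold), Pax9 (-0.32), Atf3 (-0.78), Nr4a2 (-0.71), Tm7sf2 (-0.97), Aldoc (-0.74), Nqo1 (-0.90), Cldn3 (-0.72) and Elf5 (-0.64). Leaving oral mucosa out raised the higher symbols called against each remaining tissue from 35 to 54.

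Whether the footpad difference was there in a second culture was asked with the arrays after transplantation, which share no array with the comparison before. The cells had been in grafts in between, and footpad carries another numeral after than before. The parts of grafting, of the numeral and of repeating a culture cannot be told apart. After transplantation 427 symbols were higher in footpad cells than in the mean of the other 4 tissues (2.94%) and 313 were lower (2.16%). Of the 122 symbols higher before, 19 were higher after (15.6%), 19 were lower after (15.6%) and 84 were not called. Of the 315 lower before, 53 were lower after (16.8%), 63 were higher after (20%) and 199 were not called. The median difference after was -0.19 for the former and 0.09 for the latter, against 1.33 and -1.37 before. These symbols were chosen for a large difference before, so a smaller one after is in part built in. Without oral mucosa in the means 31 higher symbols were called in the same direction at both stages, and without trachea 12.

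The 2 markers parted at this point. Tfap2b read 7.08 and 7.21 in footpad cells after transplantation and 3.94 to 6.36 in the others, a difference of 1.98 ± 0.10. Cd200r1 read 3.30 and 3.27 in footpad cells, below all other recovered cultures (3.41 to 5.51), a difference of -1.41 ± 0.13. Both footpad values and the lower end of the others lay under the guide level, so the size of this difference is not fixed. Keratin 10 was 7.76 and 7.99 against 4.75 to 6.03, and keratin 1 was 8.70 and 8.76 against 4.18 to 5.01. Their differences after were 2.62 ± 0.11 and 4.16 ± 0.15, and that of keratin 1 was larger after than before (adjusted p 3.59e-06 for the interaction in limma). Serpine2 (2.03), Moxd1 (1.40) and Hr (1.04) were also higher at both stages, as was Tbx15 (1.80). Of the other position genes called before, Hoxc12 (0.20), Hoxa7 (0.70), Hoxa5 (0.50), Tbx3 (0.57), Pitx1 (0.04) and Meis2 (-0.69) were not called after. Pax9 (-1.48) was lower at both stages. Has2 (-1.91) and Nppb (-1.94) were lower after. On the lower side Tspan8 (-2.58), Arhgdib (-2.87), C3h15orf48 (-2.61), Krt4 (-1.76), Serpinb11 (-1.71) and Prom1 (-1.54) kept their direction. Elf3 read 8.24 and 8.38 in recovered footpad cells against 6.19 to 9.81, and Ehf read 8.43 and 8.54 against 7.74 to 9.83, so neither was called. Krt15 read 10.60 and 10.95 against 5.84 to 9.61 and was higher by 3.19. Epcam and Scel were likewise lower before and higher after, by 1.60 and 2.15. Of the fibroblast list 0 members were higher after and 1, S100a4 (-1.08), was lower, with Dcn at 3.71 and 3.76 in footpad cells against 3.75 to 4.24.

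**Figure D5:**
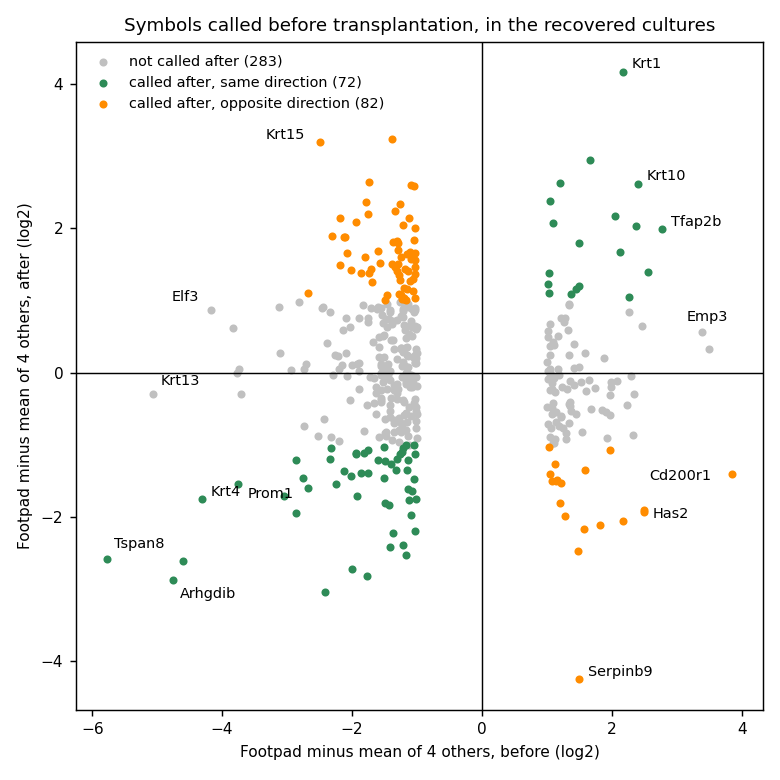
Each point is 1 of the 437 symbols called before transplantation, with its footpad difference from the mean of the other 4 tissues before (horizontal, log2) and after (vertical, log2); colors give the call after. Of these, 72 kept their direction, 82 were called in the opposite direction, among them Cd200r1 and Krt15, and 283 were not called after.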

How the data were processed

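Cells were cultured in duplicate, sorted on EGFP, and 100 ng of total RNA per array was hybridized to Affymetrix Rat Gene ST arrays. The authors deposited log2 values made by RMA in Affymetrix Expression Console, which corrects background, brings all arrays to a common distribution and summarizes each probe set. Quantile normalization of this kind leaves only changes relative to the other genes. No source used here gives the versions of these tools. The table has 29215 probe sets and 20 arrays, and array medians were 5.31 to 5.55. With 2 arrays a group, their small number sets the precision.

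Groups followed the tissue and stage in the labels. Symbols came from the platform annotation: 15310 had a single symbol, 323 several and 13582 none here, and 15279 gene IDs were found in a RefSeq table of GRCr8. A contrast of group means was tested with limma 3.58.1 (lmFit and eBayes, statmod 1.5.0, R 4.3.3) on all 20 arrays in 10 groups, with 10 residual and 3.64 prior degrees of freedom. The Benjamini-Hochberg adjustment ran over all probe sets. Stages were compared by an interaction contrast. Where a group lay under the level that held the lowest 40% of probe sets, folds were also computed with values raised to that level, a step chosen after the data were seen. The fit was tested on simulated data. Replicate numbers were not used to pair the arrays in the main fit. Duplicate differences of the tissues before correlated between -0.41 and 0.40, a range that does not show whether same-numbered arrays vary together.

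The genes, lists and tests were chosen with earlier results of these data known. Named genes were the 15 largest differences in each direction among called symbols whose footpad arrays lay beyond all others, Tfap2b and Cd200r1, up to 4 called members of each list, and a fixed set of keratins, AP-2 and limb genes. Members of the 4 lists drawn as levels and of the marker lists are given beyond that rule where they complete a list, and were chosen after their values were seen. En1 and Xist, also in that set, were not analysed here. Alternatives were another set of fitted arrays, median centering, a filter on low probe sets, a trended and robust prior, averaged probe sets, the spread between tissues as the error, a replicate block, leaving out each array or tissue, and vagina alone.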

Additional observations from a re-analysis of the deposited data

Results flagged for a closer look

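The footpad difference from the other 4 tissues was not the same at both stages for 28 of the 30 ranked genes, by the interaction contrast in limma at an adjusted p under 0.05, which 41.3% of all symbols passed. The ranked genes were chosen for a large difference before, and the contrast uses those same values, so this count was largely fixed by the choice and the values are given as a description. They are the log2 difference before transplantation minus that after. For genes higher in footpad before, it was Cd200r1 (5.26), Nppb (4.42), Has2 (4.40), Gnai1 (3.16), Emp3 (2.82), Cpa4 (2.69), Dcn (2.65), Ocm (2.34), Vim (1.82), C1r (1.42), Hr (1.23), Moxd1 (1.15) and Tfap2b (0.79). For genes lower in footpad before, it was Elf3 (-5.03), Krt13 (-4.76), Gabrp (-4.45), Mal2 (-4.03), Ppbp (-3.79), Ehf (-3.77), Tmprss11b (-3.41), Fads1 (-3.38), Tspan8 (-3.19), Sult1b1 (-2.96), Krt4 (-2.55), Prom1 (-2.21), C3h15orf48 (-1.99), Arhgdib (-1.89) and Serpinb11 (-1.34). Krt10 and Serpine2 did not pass, with adjusted p of 0.292 and 0.279. Both footpad arrays of Cd200r1 before lay above, and both after lay below, all arrays of the other tissues at the same stage. The footpad values after lay under the guide level, so the size of that reversal is not fixed.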

How the results depend on the processing

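The number of probe sets higher and lower (163 and 468) stayed within 1.5 times under every alternative but the spread between tissues as the error. That left 1 and 0 probe sets, and 1 and 0 symbols whose arrays did not overlap. Its construction, with 5 group means in the fit, leaves fewer degrees of freedom, and the lowest adjusted p among lower probe sets was 0.0675. Centering each array on its median moved every difference by -0.12, changed the median of all probe sets from 0.05 to -0.06, and gave 112 higher and 640 lower probe sets, so the share of higher calls fell from 25.8% to 14.9%. Symbols higher against each tissue numbered 54 without oral mucosa in place of 35. Symbols called in the same direction after numbered 31 (higher) without oral mucosa and 12 without trachea, in place of 19, and for the lower 29 without trachea and 17 against vagina alone, in place of 53; the cause was not tested. Cd200 without vagina (0.0637) and Sox2 against vagina alone (0.0526) changed sign. Leaving out 1 array gave 154 to 186 higher and 420 to 603 lower probe sets, 102 to 117 and 264 to 352 not overlapping, 33 to 39 and 98 to 135 against each tissue, and 17 to 20 and 48 to 56 in the same direction after. With the replicate block the counts were 163 and 469 probe sets, 108 and 276, 35 and 108, and 19 and 53, and no call of a named gene changed. Among named genes, 88 of 103 kept their call against vagina alone, 14 lost it and 1 changed sign. The comparison with each tissue could not be run against vagina alone or on tissue means, nor the comparison after transplantation on the arrays before or on tissue means. Where a group lies near background, the size of its fold is limited by that level.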
